A study of Mus musculus with 26 samples.

Results

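The 13 mouse hearts of this series carry a running number in their titles. Hearts 1 to 6 (6 hearts, called the earlier hearts) were compared with hearts 7, 8, 9, 12, N1, N2 and N3 (7 hearts, called the later hearts), so all 13 hearts and all 26 arrays of the series entered the comparison. The labels explain neither the numbers nor the N, and they give no litter, dissection date or array date. "Earlier" and "later" refer to the number alone. Every sample was total RNA from the entire heart at embryonic day 12.5. The allele under study is Nkx2.5, which encodes a transcription factor of heart muscle, without its NK2-specific domain, and the labels call each heart wt (wild type), het (heterozygous) or null for it. Hearts 1 and 2 were wild type, 5 and 6 heterozygous, and 3 and 4 null. Of the later hearts, 7, 9 and N1 were wild type, 12 and N2 heterozygous, and 8 and N3 null. Both sets therefore hold all 3 genotypes, and genotype was a term of every fit. The hearts were not divided into chambers, and 0 probe sets were named Nkx2-5 in the annotation, so the targeted gene could not check the genotype labels. Nothing shows whether the hearts came from separate litters, and the spread behind each p-value is that among these hearts only, which may be technical in part.

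The midgestation heart is a muscular organ lined by endocardium and covered by epicardium. It has cushions that will become valves and an outflow tract that connects to the great arteries. Its muscle cells make sarcomeres from a small set of abundant transcripts. Its connective tissue cells lay down collagens, proteoglycans and elastic fibres, and these genes are known to increase as the valves, the epicardium and the vessel wall mature. Imprinted genes, which are expressed from one parental copy, regulate growth of the whole embryo.

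RNA of each heart was hybridised to an A array (6584 probe sets) and to a B array (6595 probe sets), read as scaled intensity. Hearts 1, 6 and N2 lacked 62.5% to 81.3% of their A values, and hearts 3, 9 and N1 lacked 71.4% to 80.6% of their B values. A blank cell was missing, not 0, so many A probe sets rest on 4 earlier hearts and many B probe sets on 5 earlier and 5 later ones. Values under 887 (A) or 1373 (B) were raised to that floor, and 4494 probe sets, which cover 2733 named genes, were tested. The cardiac actin gene Actc1, a marker of heart muscle, was far above the floor in all 13 hearts, from 27376 to 229274. All differences below are log2 signal in later minus earlier hearts, with the standard error (SE) and a p-value adjusted over all probe sets of both arrays. A difference of 1 is a doubling, and a probe set passed the test at an adjusted p under 0.05.

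Earlier and later hearts lay apart over the probe sets without blank cells, which are a part of those tested. On the first principal component of 1097 probe sets without blank cells, which held 29.7% of the variance, the earlier hearts lay between -8.80 and -2.92 and the later hearts between 1.19 and 9.12, with no overlap. The second component held 15% and spread hearts 8, 9 and 12. Of the 4494 probe sets, 321 passed the test (7.14%). In later hearts 174 were higher (3.87%), with a median difference of 0.66, and 147 were lower (3.27%), with a median of -0.67. Counted without a test, all later hearts lay above all earlier hearts for 146 probe sets (3.25%) and below them for 163 (3.63%), over the hearts that had a value. With each gene represented by its brightest probe set, 131 of 2733 genes rose (4.79%) and 46 fell (1.68%), and the median over all genes was 0.045. The share of called probe sets that were higher was 54.2%, but 39.6% with quantile scaling (55 of 139) and 36.4% with equal trimmed means (110 of 302). Leaving out 1 heart moved the count of 321 to 184 without heart 1, 101 without heart 2, 106 without heart 4, 140 without heart 7 and 138 without heart 8.

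**Figure D1:**
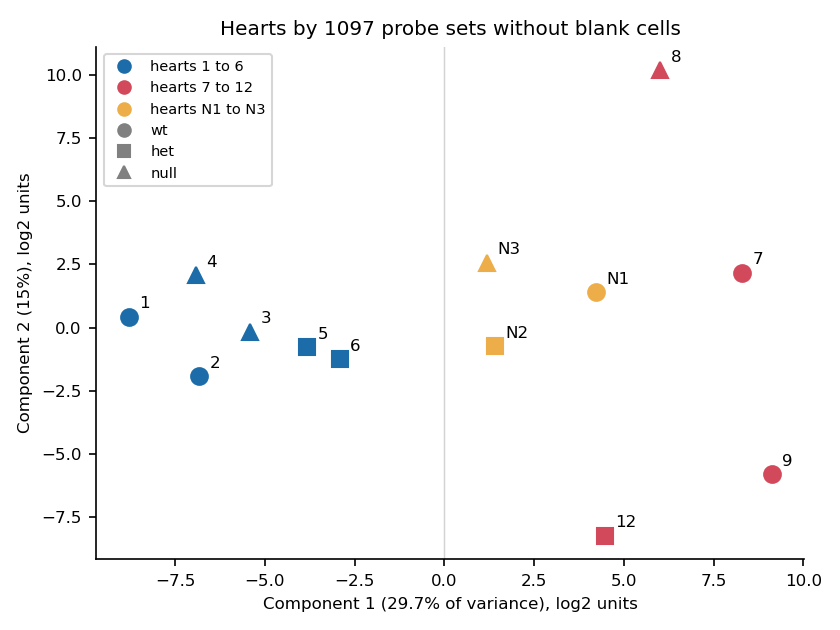
The 13 hearts on the first and second principal components (log2 units) of 1097 probe sets without blank cells; colour gives the number series and marker shape the genotype. Earlier hearts lie between -8.80 and -2.92 on component 1 and later hearts between 1.19 and 9.12, while genotypes are mixed on both sides.

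Several genes of the extracellular matrix were higher in later hearts. Eln encodes elastin, the core of elastic fibres in the arterial wall. Its signal in earlier hearts had a lowest value of 2987, a median of 5893 and a highest value of 8306, and in later hearts 9238, 12502 and 17181. The ranges did not overlap, and heart 3 (null) was the lowest of the earlier hearts while heart 7 (wild type) was the highest of the later ones. The difference was 1.23 ± 0.16 (SE), adjusted p = 0.00267. It was 1.22 in wild-type, 0.82 in heterozygous and 1.67 in null hearts.

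Mgp encodes matrix Gla protein, an inhibitor of calcification in vessel wall and cartilage. It measured 4028, 4963, 2549, 5648 and 3105 in hearts 1, 2, 5, 6 and 4, and 10763, 9734, 11561, 16622 and 6806 in hearts 7, 12, 8, N2 and N3. The lowest later heart was above the highest earlier heart, and the difference was 1.54 ± 0.25 (SE, adjusted p = 0.00696). Fbln1, a fibulin bound to elastic fibres and basement membranes, rose by 0.59 ± 0.14 (adjusted p = 0.0221), from a median of 3309 to 5508 with overlapping ranges. Of the 8 elastic fibre and vessel wall genes tested, 3 rose, 0 fell and the median was 0.49. The 5 that did not pass included Lox, which crosslinks elastin (0.52), and Loxl1 (-0.23).

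Lum encodes lumican, a small proteoglycan that spaces collagen fibrils. It measured 1396, 1007, 1030 and 1158 in hearts 2, 5, 3 and 4. In the 6 later hearts with a value the lowest was 1790, the median 2522 and the highest 2653. Every later heart was above every earlier one, and the difference was 1.03 ± 0.18 (SE, adjusted p = 0.00893). Sparc, which encodes a collagen-binding secreted protein, passed the test on both of its probe sets, with differences of 0.55 ± 0.15 and 0.52 ± 0.15 (adjusted p = 0.0402 and 0.0491). Heart 9 was the exception among the later hearts in both cases, at 13095 and 13341, below every earlier heart.

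Vcan, the large proteoglycan versican of the cushions, went the other way on one of its probe sets. That probe set measured 1669, 2869, 2695 and 2328 in hearts 2, 5, 3 and 4, and from 741 to 1512 in 6 later hearts, a difference of -0.97 ± 0.19 (SE, adjusted p = 0.0147) without overlap. The other, brighter Vcan probe set had a median of 9967 in earlier and 9508 in later hearts and a difference of -0.10 (adjusted p = 0.743). The probe sets of Vcan therefore disagree, and the signal of the gene as a whole is uncertain. Of 11 proteoglycan and matricellular genes, 2 rose, 0 fell by their brightest probe set, and the median was 0.21.

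Both tested chains of type VI collagen, a microfibrillar collagen of the cell surroundings, rose. Col6a2 had a lowest value of 2300, a median of 3325 and a highest value of 4160 in earlier hearts, and 4603, 5599 and 7321 in later hearts. The difference was 0.83 ± 0.14 (SE, adjusted p = 0.00691), again without overlap. Col6a1 rose by 0.63 ± 0.14 (adjusted p = 0.0221), from a median of 1979 to 3237. Of 11 collagen genes tested, 2 rose, 0 fell, 10 had a positive difference and the median was 0.35. For the fibrillar collagens Col1a1 and Col1a2 the brightest probe sets gave 0.63 and 0.65 (adjusted p = 0.154 and 0.131). A second probe set of Col1a2 (0.79 ± 0.21, adjusted p = 0.044) and one of Col5a1 (0.82 ± 0.20, adjusted p = 0.0338) passed, while the brighter Col5a1 probe set gave 0.13 (adjusted p = 0.742).

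Among matrix enzymes and inhibitors, 1 of 10 rose, with a list median of 0.17. This was Timp3, a matrix-bound inhibitor of metalloproteinases, with a median of 2429 in 5 earlier and 3836 in 7 later hearts (0.71 ± 0.18 SE, adjusted p = 0.0328). Of 7 laminin and other basement membrane genes, 0 passed, and the median was 0.06. The calls of Eln, Mgp, Lum, Col6a2 and Vcan each held when any 1 heart was left out. Col6a2 lost its call with quantile scaling (0.76, adjusted p = 0.0878) and Lum with a floor of 4 times the noise (0.43, adjusted p = 0.053). All 5 lost theirs with no filter on low values, with the spiked control signal as a covariate and without hearts 7 to 12. Fbln1 lost its call without heart 1 or 2 (0.54 to 0.61), Col6a1 without heart 2 or 4 (0.61 to 0.62), Timp3 without any 1 of hearts 1, 2, 4, 7, 8, 12 or N1 (0.61 to 0.74), and Col5a1 without 2, 3, 4, 7, 8 or N3 (0.70 to 0.82). Col1a2 lost it without any 1 of 8 hearts (1, 2, 4, 6, 7, 8, N2 and N3; 0.56 to 0.79). Sparc lost it on one probe set without any heart other than 9 (0.50 to 0.62) and on the other without any heart other than 3 or 9 (0.42 to 0.58). Quantile scaling also ended the calls of Fbln1, Col6a1, Timp3, Col5a1, Col1a2 and Sparc.

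**Figure D2:**
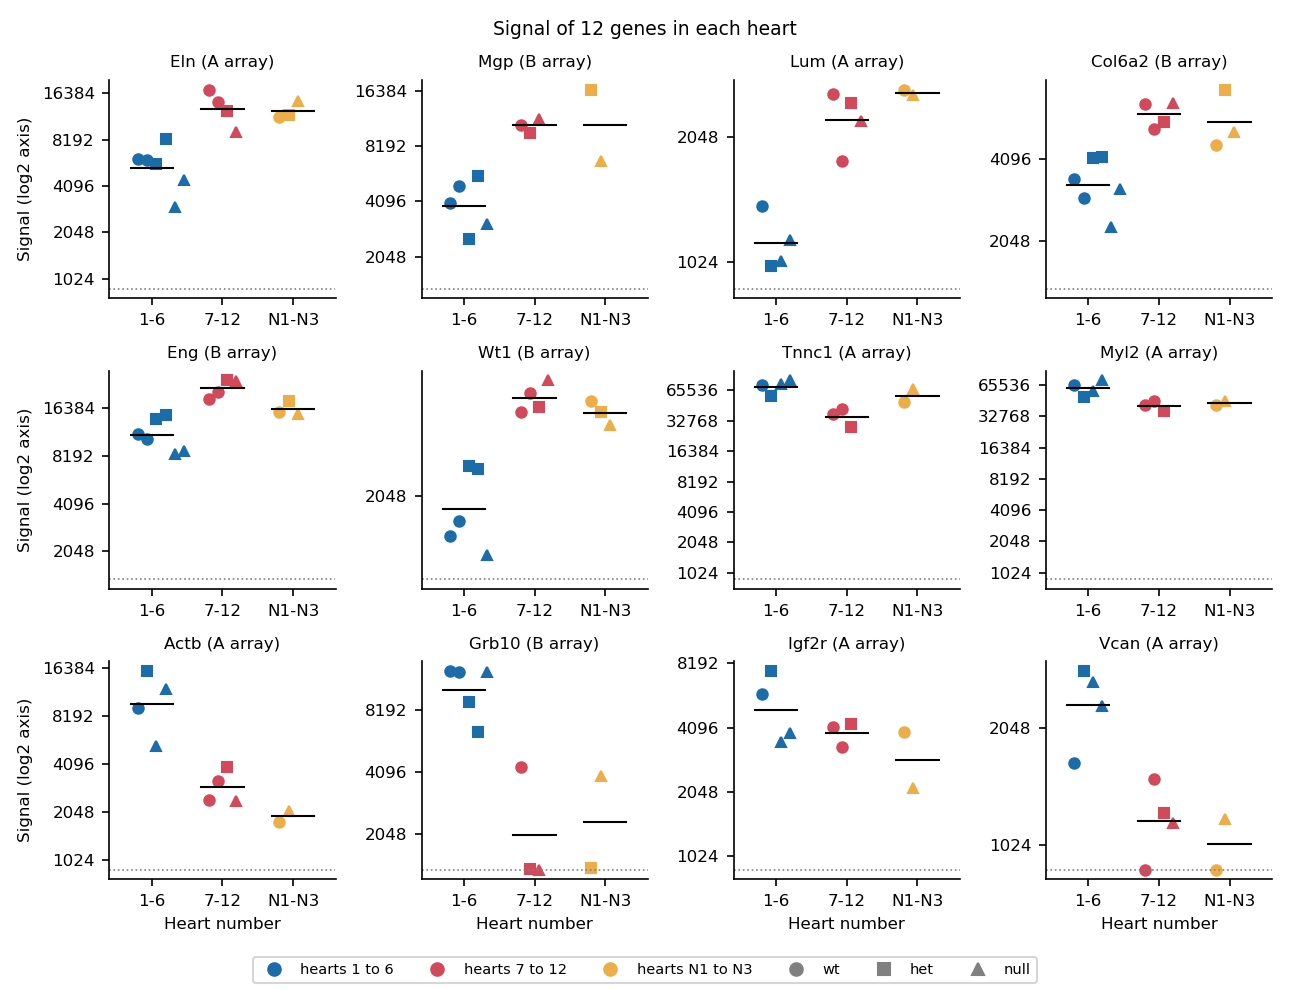
Signal (log2 axis) of 12 genes in each heart, by number series; marker shape is the genotype, the bar is the mean of log2 values of a series, the dotted line is the floor, and hearts with a blank cell have no point. Eln, Mgp, Lum, Col6a2, Eng and Wt1 are higher, and Actb, Grb10, Vcan and Myl2 lower, in every later heart than in every earlier heart shown, whereas Tnnc1 and Igf2r overlap.

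Of the endothelial genes, 2 rose in later hearts. Eng encodes endoglin, an accessory receptor for transforming growth factor beta family ligands on endothelium. It had a lowest value of 8384, a median of 10893 and a highest value of 14904 in earlier hearts and 15026, 18683 and 24539 in later hearts. The ranges touched without overlapping, and the difference was 0.81 ± 0.14 (SE, adjusted p = 0.00658). Tie1, an orphan receptor tyrosine kinase of endothelium, rose by 0.59 ± 0.12 (adjusted p = 0.0116), from a median of 4400 to 6686, and of the earlier hearts heart 6 alone, at 6152, reached the range of the later ones. The Tie1 call was lost with quantile scaling and without the mostly blank arrays. The other 10 endothelial genes tested did not pass, and they pointed both ways: Cdh5, the endothelial cadherin, gave 0.37, Pecam1 -0.30, Cd34 -0.51 and the growth factor receptor Kdr -0.25. The list therefore held 2 of 12 that rose, 0 that fell and a median of 0.15. Of the 12, 8 had a positive and 4 a negative difference. Of the 20 endothelial markers on the arrays, 7 were above the floor on no array. In RNA from a whole organ, fewer cells of a type and less RNA per cell cannot be told apart.

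Wt1, a transcription factor of the epicardium, measured 1686, 1818, 2369, 2337 and 1543 in hearts 1, 2, 5, 6 and 4. In the 7 later hearts the lowest value was 2887, the median 3149 and the highest 3577. The sets did not overlap, and the difference was 0.75 ± 0.15 (SE, adjusted p = 0.0114). Without heart 4 it was 0.66 with an adjusted p of 0.0562, and the call was also lost with quantile scaling and with a floor of 4 times the noise. It was the only one of 8 epicardial and fibroblast genes tested to pass. Tcf21, another epicardial transcription factor, gave -0.15 and the fibroblast receptor Pdgfra 0.15. The list's median was 0.22. Cushion and valve genes (6 tested, median -0.20) and smooth muscle genes (6 tested) had 0 calls in either direction, and the smooth muscle median of -0.15 turned to 0.02 with quantile scaling and 0.01 with cyclic loess.

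Sarcomere genes were lower in later hearts where they passed the test. Tnnc1 encodes cardiac troponin C, the calcium sensor of the thin filament. It measured 74027, 57484, 75613 and 82378 in hearts 2, 5, 3 and 4, and 38610, 42458, 28437, 50200 and 67210 in hearts 7, 9, 12, N1 and N3. Only heart N3 reached the range of the earlier hearts. The difference was -0.65 ± 0.15 (SE, adjusted p = 0.0271). Myl2, the regulatory light chain of ventricular myosin, fell on both arrays. On A it measured 64971, 50709, 57030 and 72536 in hearts 2, 5, 3 and 4 and from 37165 to 46041 in 5 later hearts (-0.52 ± 0.12, adjusted p = 0.0251). On B the difference was -1.002 ± 0.27 (adjusted p = 0.044), but heart 8, at 80453, lay within the earlier range of 68952 to 148507.

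Myl1, a myosin light chain shared with skeletal muscle, fell as well (-0.73 ± 0.19, adjusted p = 0.038). Of 12 thick and thin filament genes, 3 fell, 0 rose and 10 had a negative difference, with a median of -0.35. That median was -0.17 with quantile scaling and -0.12 with cyclic loess. With quantile scaling all of these calls were lost: Tnnc1 gave -0.48 (adjusted p = 0.164), Myl1 -0.67 (0.0684) and Myl2 -0.18 on A and -0.38 on B (0.417 and 0.129). With cyclic loess Tnnc1 (-0.42) and the A probe set of Myl2 (-0.31) lost theirs. Actc1 gave -1.02 (adjusted p = 0.097), from 102625 to 229274 in earlier and 27376 to 154890 in later hearts. Z-disc genes (6 tested, median 0.18), calcium handling genes (10 tested, median -0.05) and atrial and chamber genes (5 tested, median -0.28) had 0 calls by their brightest probe sets. A dim probe set of Slc8a1, the sodium-calcium exchanger, was above the floor in 4 of 5 earlier and 0 of 5 later hearts. It entered the fit through the earlier hearts alone, so no difference is given for it. The bright probe set of Slc8a1 gave -0.01 (adjusted p = 0.971).

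Of the 12 thick and thin filament genes, 8 had a mean log2 signal over 15, with a median of -0.41 and 2 calls, Tnnc1 and Myl2. The 4 dimmer ones had a median of 0.04 and 1 call, Myl1. The geometric mean of the 20 brightest B probe sets without blanks was 66200 to 96600 in earlier hearts. It was 34300, 26400 and 33500 in hearts 7, 9 and 12, 51500, 65900 and 58800 in hearts N1, N2 and N3, and 80500 in heart 8 (exact two-sided permutation p = 0.0239, adjusted over both arrays 0.0361). On A it was 25200 to 31300 in earlier and 23100 to 27600 in later hearts (exact permutation p = 0.0361). For Myl2 on B, too, heart 8 was high and hearts 7, 9 and 12 were the lowest. Whether the fall of sarcomere genes is apart from the fall of all bright probe sets was not tested. Leaving out any 1 of several hearts also ended these calls: hearts 2, 4, 5, 7 or 12 for Tnnc1 (-0.67 to -0.52), hearts 2, 4 or 7 for the A probe set of Myl2 (-0.51 to -0.47), 11 hearts for its B probe set (all but 3 and N2; -1.15 to -0.74) and 3, 4, 5, 7, 8 or 12 for Myl1 (-0.74 to -0.54).

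Among growth regulators was the largest fall of any called probe set. Grb10 is an imprinted adaptor protein that restrains insulin and insulin-like growth factor signalling. Its 2 probe sets, both on B and named for the same target sequence, gave -2.19 ± 0.27 and -1.55 ± 0.25 (SE, adjusted p = 0.00364 and 0.00696). The first measured 12754, 12656, 9017, 6458 and 12562 in hearts 1, 2, 5, 6 and 4, and 4360, 1379, 944, 1402 and 3909 in hearts 7, 12, 8, N2 and N3. All 5 later hearts were below all 5 earlier hearts, and the lowest later hearts came from both number series and from 2 genotypes. The differences of the first probe set were -1.54 in wild-type, -2.46 in heterozygous and -2.44 in null hearts. Heart 8 lay under the floor of 1373 and was raised to it, and hearts 12 and N2 lay just above it. The size of these differences therefore depends in part on the floor. Over the alternative settings the difference of the first probe set ran from -2.45 to -1.63.

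Igf2r, the imprinted receptor that clears insulin-like growth factor 2, measured 5869, 7548, 3496 and 3865 in hearts 2, 5, 3 and 4 and 4126, 3320, 4252, 3898 and 2146 in hearts 7, 9, 12, N1 and N3. These ranges overlap, because null hearts were lower in both sets. With genotype in the model the difference was -0.74 ± 0.14 (SE, adjusted p = 0.0147). It did not pass without genotype, without heart 2 (-0.80) or without the N hearts. Mest, another imprinted gene expressed in mesoderm, fell (-0.45 ± 0.11, adjusted p = 0.027), and it lost its call without any 1 of hearts 2, 4, 5, 7, 8 or 12 (-0.47 to -0.38). The Mest call was also lost with quantile scaling, with cyclic loess, without a variance trend and with the Gapdh 3' to 5' ratio as a covariate. Of 12 imprinted growth regulators, 3 fell, 0 rose and the median was -0.25. H19, the imprinted noncoding RNA, gave -0.93 and -0.88 on its 2 probe sets (adjusted p = 0.081 and 0.144), Igf2 -0.33 (adjusted p = 0.187) and Dlk1 0.68 (adjusted p = 0.146). Of 8 genes of the insulin-like growth factor and insulin pathway, 2 fell, and these were again Grb10 and Igf2r.

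Of the genes of the cell cycle, 2 of 32 rose, 1 fell and the median was 0.04, close to that of all genes, and it was -0.01 with quantile scaling. Ccnd2, a cyclin that drives entry into DNA synthesis, fell from 9227, 6714, 4328 and 7976 in hearts 2, 5, 3 and 4 to 4158, 3519, 4648, 4881 and 3295 in hearts 7, 9, 12, N1 and N3 (-0.88 ± 0.21, adjusted p = 0.0284). The proliferation marker Mki67 went up, from a median of 7606 to 10671 (0.50 ± 0.13, adjusted p = 0.0294), and so did the phosphatase Cdc25a (0.44 ± 0.12, adjusted p = 0.038). None of these 3 calls held under every omission of 1 heart. Ccnd2 lost its call without heart 2, 4, 7 or N3 (-0.90 to -0.70), Mki67 without 1, 2, 4, 6, 7, 8, 12 or N1 (0.44 to 0.52) and Cdc25a without 2, 4, 5, 7, 8, 12, N2 or N3 (0.36 to 0.49). Of 7 tested fibroblast growth factor and other growth factor genes, 0 passed.

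The cytoskeletal actin gene Actb had a very large difference on 3 probe sets of A. The first measured 9170, 15764, 5292 and 12228 in hearts 2, 5, 3 and 4, and a lowest value of 1769, a median of 2405 and a highest value of 3927 in 6 later hearts. The 3 differences were -1.91 ± 0.23, -1.79 ± 0.24 and -1.82 ± 0.25 (SE, adjusted p = 0.00267, 0.00364 and 0.00456), all without overlap. The control probe sets that each array carries for the same gene did not show a difference of this size. On A they differed by -0.23 at the 3' end, -0.04 in the middle and -0.28 at the 5' end of the transcript. On B the values were more negative, at -0.73, -0.48 and -0.66 (adjusted exact permutation p = 0.176, 0.250 and 0.131). None of these passed an exact permutation test after adjustment. On the scale of log2 signal the A control sets read 15.9, 15.4 and 15.6 in earlier hearts, so they are far brighter than the 3 probe sets that fell. The probe sets of Actb disagree, and the level of its transcript is uncertain from these arrays. Of 17 genes of the actin and tubulin cytoskeleton, only Actb passed; the median was -0.06 and became 0.05 with quantile scaling or cyclic loess.

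Of 36 ribosomal protein genes, 34 had a negative difference, with a median of -0.29, but by their brightest probe sets only Rpl23a fell (-0.37 ± 0.10, adjusted p = 0.038). The list's median shrank to -0.04 with quantile scaling and -0.10 with cyclic loess, and 20 of the 36 genes had a mean log2 signal over 15. Dimmer probe sets of Rps3 (-0.48 ± 0.13, adjusted p = 0.044) and Rplp0 (-0.54 ± 0.11, adjusted p = 0.0131) also passed. The elongation factor gene Eef1a1 fell on 1 of its 4 probe sets (-0.82 ± 0.14, adjusted p = 0.00739), and the other 3 gave 0.03, -0.42 and -1.03. Rplp0 and Eef1a1 lost their calls without heart 2 (-0.57 and -0.76), Rpl23a without any 1 of 8 hearts (2, 4, 5, 7, 8, 12, N1 and N2; -0.40 to -0.31) and Rps3 without any 1 of 10 (all but 6, 9 and N2; -0.52 to -0.40).

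In mitochondria, 2 of 35 genes of oxidative phosphorylation fell, with a list median of -0.13. Uqcrq, a subunit of complex III, measured 16147, 15176, 13463, 15958 and 15783 in hearts 2, 5, 6, 3 and 4 and 7691 to 13193 in later hearts (-0.56 ± 0.12, adjusted p = 0.0174), and heart N2, the highest later one, was close to the earlier range. Ndufb6, a subunit of complex I, gave -0.42 ± 0.11 (adjusted p = 0.0311). The mitochondrial ribosome gene Mrps11 measured 2138.5, 2309.9, 2422.6, 2879.8 and 3129.2 in hearts 1, 2, 5, 6 and 4. Only 3 of 7 later hearts were above the floor. Mrps11 entered the fit through the earlier hearts and most of its later values rest on the floor, so no difference is given for it. Another, Mrpl10, was above the floor in 6 of 6 earlier hearts, at 1336 to 1968, and in 1 of 7 later hearts, and it has no difference here because the later values rest on the floor. Uqcrq lost its call without heart 2 or 4 (-0.54 to -0.45) and Ndufb6 without 2, 3, 6, 7, 8 or N2 (-0.46 to -0.37). Glycolysis (12 genes) and chaperone genes (18) had 0 calls by their brightest probe sets, and a second probe set of hexokinase Hk1 fell (-0.39 ± 0.11, adjusted p = 0.046), a call lost without any 1 of 8 hearts (1, 2, 3, 4, 7, 8, 9 and N1; -0.41 to -0.33).

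Of the globin and red cell genes, 2 rose in later hearts and 0 fell. Tested were 4 embryonic globins, 2 adult globins and 10 haem and red cell genes, and they pointed both ways. Over all genes tested 4.79% rose and 1.68% fell. Hbb-bh0, a beta-like globin of embryonic red cells, measured 2653, 1142, 3827, 3863 and 3416 in hearts 1, 2, 5, 6 and 4, and 13209, 14224, 15188, 6394 and 6045 in hearts 7, 12, 8, N2 and N3. The rise of 1.78 ± 0.35 (SE, adjusted p = 0.0146) was the largest of any called probe set that was higher in later hearts, and the 2 N hearts were the lowest of the later ones. Without heart 7 it was 1.38 (adjusted p = 0.0661). Alas2, the red cell enzyme that starts haem synthesis, rose by 1.29 ± 0.31 (adjusted p = 0.0328), from 9303, 4346, 13792, 9129 and 6808 in hearts 1, 2, 5, 6 and 4 to 23986, 22504, 31748, 13394 and 14576 in hearts 7, 12, 8, N2 and N3. That call was lost without any 1 of hearts 2, 4, 6, 7, 8 or 12 (1.04 to 1.30).

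The other embryonic globins did not pass: Hbb-bh1 gave 0.11, Hba-x -0.53, and the Hbb-y probe sets -0.42 and -0.98. The adult-type globin Hba-a1 ranged from 50929 to 227332 in earlier hearts and from 2117 to 128569 in later hearts (-2.12 ± 0.73, adjusted p = 0.0877). Hearts 7, 9 and 12 were at 6712, 2117 and 5470, heart 8 at 128569 and the N hearts at 26726 to 51829. Hbb-b2 gave -0.71 (adjusted p = 0.183). Both are bright B probe sets, and over hearts 7, 9, 12 and 8 they share the order of the 20 brightest B probe sets. Neither has a blank cell, so either may be among those 20, and the shared order is no separate result. Of 10 haem and red cell genes, 1 rose and 0 fell, with a median of 0.30; Slc4a1, the red cell anion exchanger, gave 1.09 on one probe set and -0.35 on another.

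Other genes with the smallest p-values belong to no list above. Higher in later hearts without overlap were Ubap2 (0.87 ± 0.14, adjusted p = 0.00496), Glg1, a Golgi glycoprotein (0.97 ± 0.16, adjusted p = 0.00525), and Vps4a, an ATPase of endosomal sorting (1.21 ± 0.21, adjusted p = 0.00658). Ubap2 had values from 2981 to 4799 in earlier and 5577 to 8373 in later hearts. The Glg1 value is from B, and a dimmer Glg1 probe set on A gave 0.57 ± 0.22 (adjusted p = 0.139), with overlap. Zfp385a (1.34) also rose, with overlap. Pex14 and Git1 were above the floor in all later hearts with a value but in only 2 earlier hearts each, so no difference is given for them. In the immediate early list 1 of 8 rose, the AP-1 subunit Jund, on both of its probe sets (0.69 and 0.64). Of the 8, 7 had a positive difference, and the list median was 0.38.

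Lower in later hearts were Cers2, a ceramide synthase (-0.80 ± 0.13, adjusted p = 0.00496), and Pafah1b1, a dynein regulator, on both of its probe sets (-0.98 ± 0.17 and -0.58 ± 0.13, adjusted p = 0.00691 and 0.0221). The Cers2 value rests on the floor in part: it was -0.16 with a floor of 4 times the noise (adjusted p = 0.138) and -1.38 without a floor (adjusted p = 0.140), where heart N2 has a negative value of -4095.3. A second Cers2 probe set gave -0.25 (adjusted p = 0.353). The skeletal muscle transcription factor Myog measured 1561, 1454, 2064 and 1833 in hearts 2, 5, 3 and 4, and only 1 of 6 later hearts was above the floor. Myog entered the fit through the earlier hearts, so no difference is given for it. Of 15 skeletal muscle markers on the arrays, Myog included, 10 were above the floor on no array, among them Myod1, Myf5 and Mylpf. Of the other tested members, muscle creatine kinase Ckm gave 0.75 and 0.63 on its 2 probe sets (adjusted p = 0.089 and 0.158) and Tnni2 -0.34 (adjusted p = 0.508). The Jund calls were lost without heart 2 on one probe set (0.60) and without heart 2, 4, 7 or 8 on the other (0.50 to 0.57), and the weaker Pafah1b1 call without heart 4 (-0.55).

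**Figure D3:**
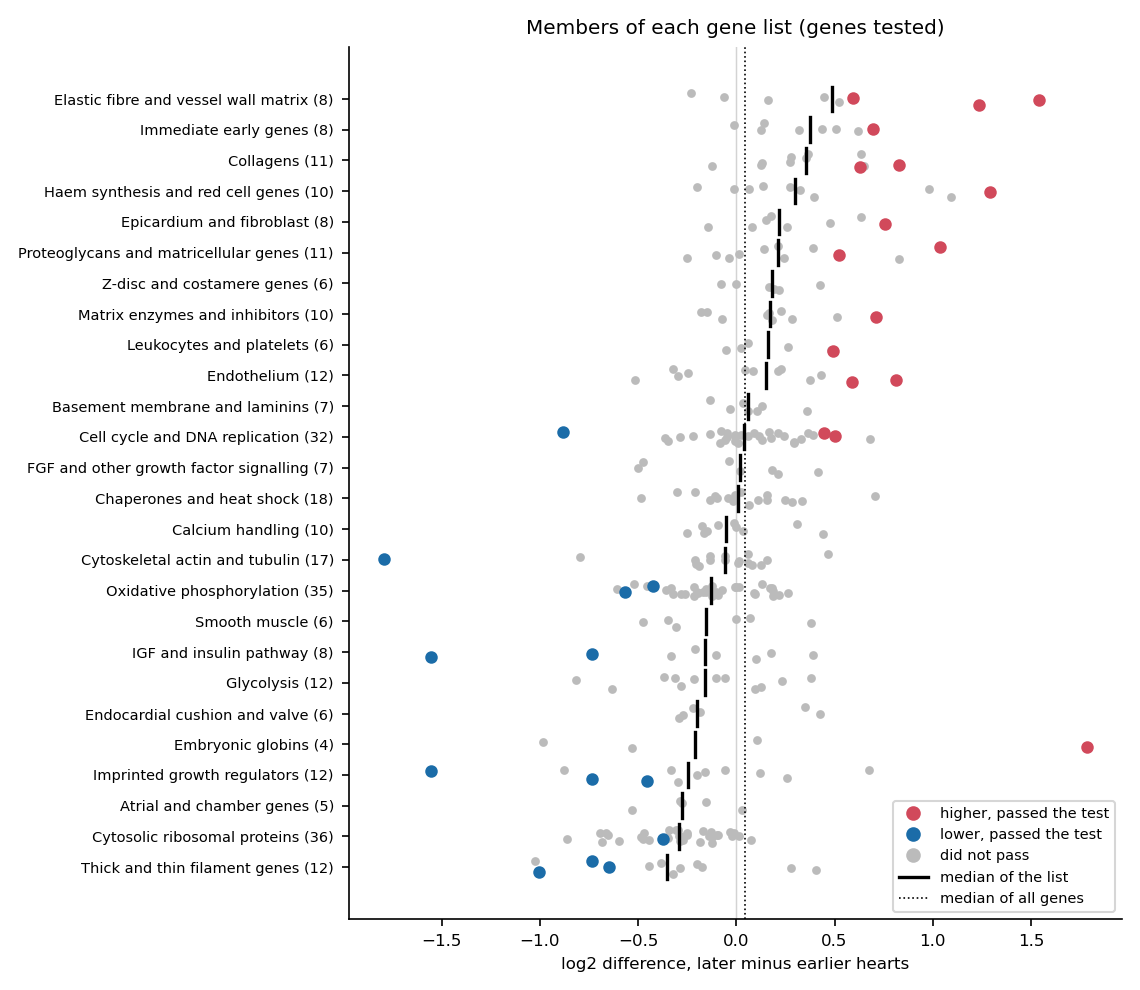
Members of each gene list by log2 difference, later minus earlier hearts, 1 point per gene by its brightest probe set; numbers in parentheses are genes tested, thick ticks are list medians and the dotted line is the median of all genes (0.045). Elastic fibre and collagen genes lie to the right (medians 0.49 and 0.35), matrix enzymes and basement membrane genes less so or not at all (0.17 and 0.06), and thick and thin filament and ribosomal genes to the left (-0.35 and -0.29).

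The later hearts form 2 number series, which were also fitted apart. Against hearts 1 to 6, hearts 7 to 12 (4 hearts) had 378 probe sets past the test (8.41%), 182 higher and 196 lower. Against the same 6 hearts, N1 to N3 (3 hearts) had 37 (0.823%), 18 higher and 19 lower. The 2 comparisons share the earlier hearts. The N count lay between 0 and 29 when any 1 heart was left out (0 without heart 2, 5 or N1), and that of hearts 7 to 12 against hearts 1 to 6 between 111 (without heart 2) and 446. Eln differed by 1.24 in hearts 7 to 12 and 1.23 in the N hearts, Lum by 0.96 and 1.18, Col6a2 by 0.88 and 0.76, Actb by -1.78 and -2.18 on its first probe set, and Grb10 by -2.37 and -1.87. Larger in hearts 7 to 12 were the values of Eng (1.02 and 0.55), Hbb-bh0 (2.29 and 0.88), Tnnc1 (-0.87 and -0.40) and the B probe set of Myl2 (-1.21 and -0.72). For the thick and thin filament list the medians were -0.50 and -0.26, and for collagens 0.37 and 0.35.

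Tested directly, the N hearts and hearts 7 to 12 differed for 0 of 4494 probe sets (0%) in limma, with 434 at an unadjusted p under 0.05 and a smallest adjusted p of 0.139. With array weights 6 passed. The mean distance between a heart of the N series and one of 1 to 6, as the root mean square log2 difference over the 1097 probe sets, was 0.463. It was 0.551 between 7 to 12 and 1 to 6, 0.471 between 7 to 12 and N, 0.382 within 1 to 6, 0.490 within 7 to 12 and 0.391 within N. Without hearts 7 to 12, 6 probe sets passed in place of 321.

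Whether the difference between earlier and later hearts varied with genotype was tested with limma's F test, in which 0 of 4494 probe sets passed (0%). Before adjustment 262 had a p under 0.05, and after it the lowest p was 0.0804. Of the 174 probe sets that rose, 174 had a positive difference in wild-type, heterozygous and null hearts alike, with medians of 0.68, 0.54 and 0.68. Of the 147 that fell, 146 were negative in all 3 genotypes, with medians of -0.67, -0.56 and -0.69. The genotypes are parts of the fit that chose these probe sets, so the counts describe them and are no further test.

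Control signals of the arrays moved with the heart number. Spiked control transcripts (BioB, BioC, BioDn and CreX) are added at fixed amounts before hybridisation and do not come from the heart. Each array had been scaled, so their values are relative to the other signal on that array. BioC, in log2 signal, averaged 13.1 ± 0.73 (SD, n = 6) on the A arrays of earlier hearts and 12.1 ± 0.46 (n = 7) on those of later hearts. The difference was -0.97 on A and -1.498 on B, each with an exact two-sided permutation p of 0.000583, the smallest this design can give, and an adjusted p of 0.00622 over 32 array measures. BioDn differed by -1.08 and -1.37 (adjusted exact p = 0.00622 and 0.0112) and CreX by -0.73 and -1.11 (adjusted exact p = 0.0124 and 0.0280). BioB gave -0.20 and -0.70 and did not pass. All later hearts lay below all earlier hearts for BioC on both arrays.

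The Gapdh control probe sets were also lower in later hearts on A (-0.52, adjusted exact p = 0.0133), and the share of B values above the floor was higher (34.5% against 32.0%, adjusted exact p = 0.00932). The ratio of 3' to 5' Gapdh signal, a sign of RNA degradation, differed by -0.05 on both arrays in log2 and did not pass (exact p = 0.416 and 0.274). With the mean BioC, BioDn and CreX signal of each array as a covariate, 0 probe sets passed in limma. BioB, which did not differ past the test, was left out of this covariate. The controls kept are those that differed between the heart sets, so the covariate overlaps with the heart number. The loss of calls therefore cannot decide between them. Before adjustment 570 had a p under 0.05, and all 321 called probe sets kept their sign. The control signal and the heart number separate the same hearts, so an array or hybridisation batch and the hearts themselves cannot be told apart.

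**Figure D4:**
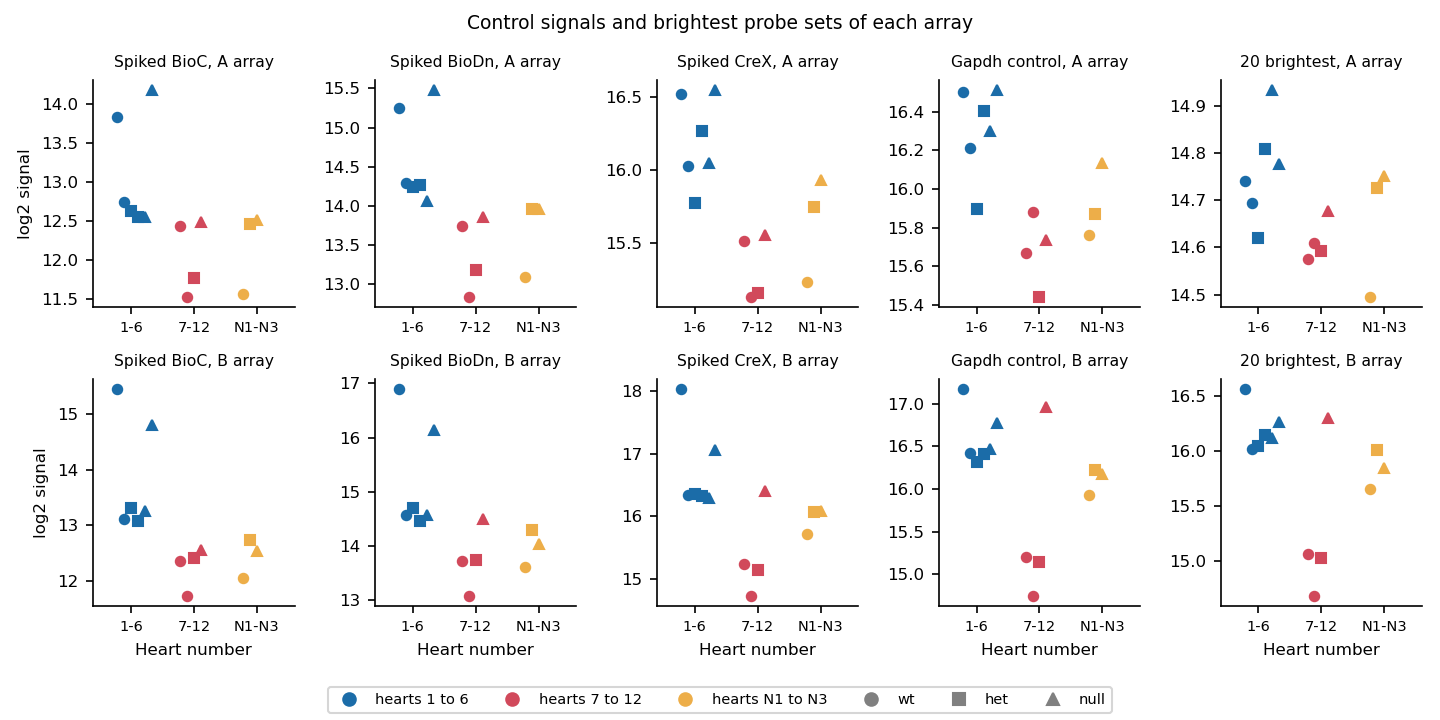
Mean log2 signal of 3 spiked controls, of the Gapdh control probe sets and of the 20 brightest probe sets without blanks. The A array (top) and B array (bottom) of each heart are shown, and panels have different vertical ranges. BioC lies lower in every later heart than in every earlier heart, and hearts 7, 9 and 12 have the lowest signals of the 20 brightest B probe sets.

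The calls differed by type and brightness of the probe set. Affymetrix marks probe sets that match a family of similar sequences with the ending _f_at. Of 935 such probe sets, 65 fell (6.95%) and 19 rose (2.03%), while of 2624 with the ending _s_at, 51 fell (1.94%) and 110 rose (4.19%). The matrix calls of Eln, Lum, Col6a2, Col6a1 and Fbln1 and the endothelial calls come from _s_at probe sets, and those of Mgp, Sparc, Actb, Eef1a1 and Myl2 from _f_at probe sets. Probe sets named for the repeat elements B1 and B2 fell on A (differences of -0.92 for MURINE_b1_at and -0.57 for MURINE_B2_at, adjusted p = 0.0300 and 0.00893). Of 160 probe sets with a mean log2 signal over 15, 14 fell and 1 rose, with a median of -0.35. Without those 160, 302 of the remaining probe sets passed, 172 higher and 130 lower. The part of these features in the results was not tested.

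**Figure D5:**
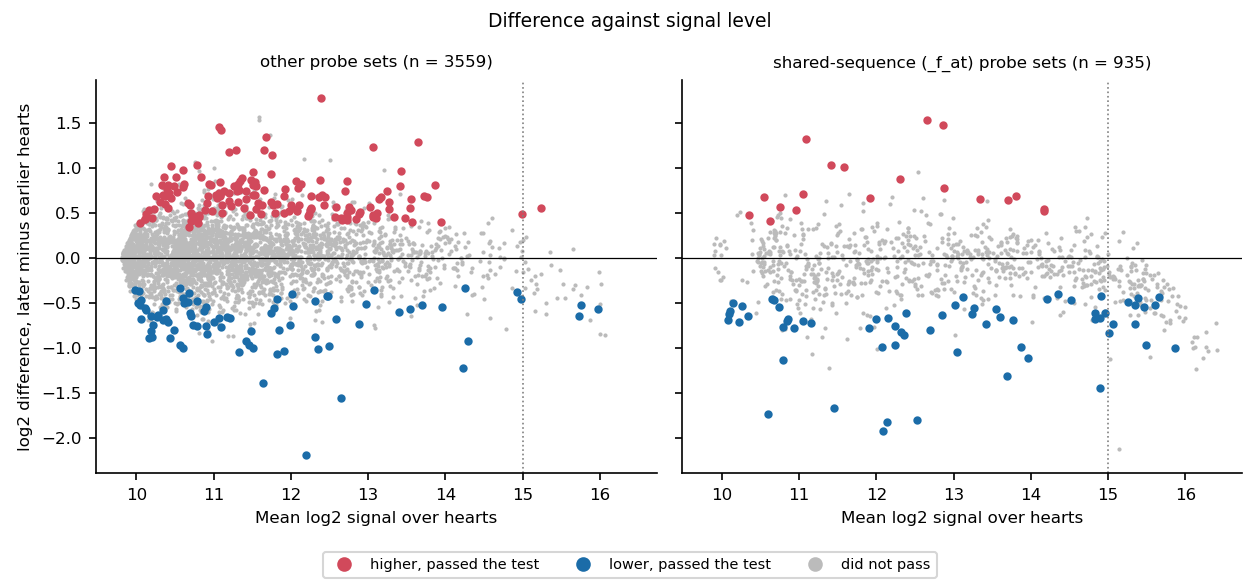
Difference between later and earlier hearts (log2) against mean log2 signal for each tested probe set, for 3559 probe sets (left) and 935 _f_at probe sets (right); coloured points passed the test and the dotted line marks a mean of 15. On the right 65 points are lower and 19 higher in later hearts, and the 160 probe sets right of the dotted line have a median of -0.35.

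Where a gene had several probe sets, most but not all pointed the same way. Of 55 genes with a called probe set and at least 1 more tested, the 63 other probe sets had the same sign in 48 cases, 8 were called in the same direction and 0 in the opposite one. For 17 called genes that were also tested on the other array, 15 of 18 probe sets there had the same sign, and 1 passed, that of Myl2.

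Most markers of neighbouring organs were above the floor on no array. Of 13 liver markers on the arrays 0 were tested, and 10, including Alb, Ttr and Ahsg, were above the floor on no array. The summed floored signal of the 9 liver probe sets on B was 12355 to 14640 in 5 earlier and 12355 to 12418 in 5 later hearts. Of these 9, 6 were above the floor on no array. Of 12 lung and foregut markers, 8 were above the floor on no array, among them Nkx2-1 and Foxa1, and the summed B signal was 13799 to 16193 in earlier and 13059 to 16844 in later hearts. Of 19 neuronal and glial markers 14 were above the floor on no array. The summed B signal was 17131 to 25570 in earlier and 11645 to 22769 in later hearts. Of its 6 probe sets 5 were above the floor on no array, so this sum follows Dpysl3 alone. The neural, lung and liver sums overlapped between the sets, but most of the probe sets in them stood at the floor. The overlap therefore cannot decide whether neighbouring tissue differed. The bright exceptions were Dpysl3, a neuronal marker, from 4781 to 18706 over both sets (-0.44, adjusted p = 0.327), and Id2, of the lung and foregut list, from 7568 to 11220 (-0.08, adjusted p = 0.761). Of 13 leukocyte and platelet markers 6 were tested and 1 passed, Laptm5, at a later median of 1337. It was above the floor in 2 of 4 earlier and 5 of 5 later hearts. Laptm5 entered the fit through the later hearts, so no difference is given for it. Its call was lost without any 1 of 11 hearts (all but 6 and N2). Xist, the only sex-linked gene tested, gave 0.13 (adjusted p = 0.634). The labels give no age finer than the embryonic day, so stage, dissection and array batch cannot be told apart by them.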

How the data were processed

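Each deposited table holds linear intensity for every probe set on every array; the authors' software is not given in the sources used here. Where no cell was blank, the mean of an array's values between the 2 and 98 percentiles was 1500 (1499.5 on one), so each array had been scaled, and negative values were present. Here, values under 2 times the root mean square of a table's negative values (443 for A, 686 for B) were raised to that floor, and log2 was taken. A probe set needed at least 4 arrays above the floor, 2 values in each genotype and 2 in each heart set. limma 3.58.1 in R 4.3.3 was fitted per table to heart set and genotype with a variance trend; its moderated tests were two-sided, and p-values of both tables were adjusted together (Benjamini-Hochberg). Array measures had exact permutation tests. Symbols came from the platform annotation, updated through RefSeq gene IDs; 827 A and 4567 B probe sets, controls included, had none. Genes were named by rule: the 15 with the smallest p per direction, up to 4 per list, and all globins, imprinted and sex-linked genes tested. The comparison, lists and rule were chosen with earlier results of these data known. The number of arrays limits the precision.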

Additional observations from a re-analysis of the deposited data

Results flagged for a closer look

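Single hearts stood apart in 16 of 230 sets of 4 to 7 hearts, by the gap to the nearest heart as a share of the whole range; chance gives about 1 in 20. Of the named probe sets, Sparc in later hearts had heart 9 low on both probe sets (shares of 0.705 and 0.642), Col1a2 had heart 12 low in later hearts (0.795), and Jund had heart 8 high in later hearts (0.656) and heart 2 low in earlier hearts (0.647). For Actb, heart 12 was the highest later heart on 2 probe sets (0.648 and 0.638). Of the Actb control probe sets on A, the 5' one had heart 2 low in earlier hearts (0.819), and the middle one had heart 2 low in earlier hearts (0.67) and heart N2 low in later hearts (0.654).

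The score of a gene list in a heart was the median over its genes of centred log2 signal, with the genotype effect removed. By this score, ribosomal protein genes had heart N2 high among later hearts (0.683) and heart 1 high among earlier hearts (0.68). Z-disc genes had heart 9 low in later hearts (0.673). Among earlier hearts, endothelial genes had heart 3 low (0.683), skeletal muscle genes heart 1 low (0.68) and basement membrane genes heart 1 low (0.653).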

How the results depend on the processing

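In every alternative run, the probe sets called in later against earlier hearts that could still be tested kept their sign, but their number did not hold. From 321 it moved to 139 with quantile scaling, 206 with a floor of 4 times the noise, 6 with no filter on low values, 192 without the mostly blank arrays, 130 on probe sets without blank cells and 611 with array weights, and when 1 heart was left out from 101 to 339. Among alternatives chosen after seeing the data it was 139 on A alone, 175 on B alone, 0 with the spiked control signal as a covariate and 6 without hearts 7 to 12. For hearts 7 to 12 against hearts 1 to 6 the count of 378 became 232 with quantile scaling, 18 with no filter, 243 without the mostly blank arrays, 170 on probe sets without blank cells, 753 with array weights, and 111 to 446 when 1 heart was left out. For N hearts against hearts 1 to 6 the count of 37 became 3 with quantile scaling, 16 with equal trimmed means, 15 with a floor of 4 times the noise, 0 with no filter, 12 without the mostly blank arrays, 18 on probe sets without blank cells, 183 with array weights, and 0 to 29 when 1 heart was left out. For N hearts against hearts 7 to 12 the count of 0 became 2 with cyclic loess, 2 with no filter, 1 with no genotype in the model, 6 with array weights, and 0 to 2 when 1 heart was left out. For the dependence on genotype the count of 0 became 2 without a floor on a generalised log2 scale, 171 with no filter, 2 with array weights, and 0 to 1 when 1 heart was left out. The cause was not tested. The share of calls that were higher was 16.7% with no filter, 42.7% without the mostly blank arrays, 74.6% on probe sets without blank cells and 66.2% without _f_at probe sets (153 of 231), against 54.2%. Of the 64 named called probe sets, 37 were still called with quantile scaling and 52 with cyclic loess. No paired analysis was possible because each heart number belongs to a single genotype.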
